A study of Mus musculus with 12 samples.

Results

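Rnase2a and Ptgdr were followed in lung RNA of mice with chronic allergic asthma, through 1 array probe each. They are 2 of the 56554 transcript probes on the array. Both were chosen by their IP signal, since the study lists them among the mRNAs whose m6A-bound signal was raised in asthma. Their change between asthma and control mice was therefore known from the choice and is described here without a test. The deposited files name probes only by number. The probes ASMM10EP3A100065296 and ASMM10EP3A100133948 were tied to Rnase2a and Ptgdr through the fold change and P that the study lists for these genes, which the deposited values of these probes give.

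The animals were female BALB/c mice, 3 in the control group and 3 in the asthma group, aged 8 to 10 weeks by the labels. The study's methods give a younger age. The injections and challenges described next span more than 7 weeks, so neither age is taken here as that at lung collection. The asthma mice received ovalbumin (OVA), an egg protein used as an allergen, by intraperitoneal injection at 0.01% on Days 0 and 7, and then inhaled aerosols of 2.5% OVA 3 times weekly for 7 weeks. The control mice received PBS by the same routes. An antibody against m6A split the whole-lung RNA of each mouse into the fraction that it bound (IP, red dye Cy5) and the fraction left in the supernatant (Sup, green dye Cy3). Both were hybridised to 1 array per mouse without a dye swap.

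m6A is a methyl mark on adenosines of RNA that is written by a METTL3 and METTL14 complex and removed by FTO and ALKBH5. The IP signal of a gene holds both the amount of its RNA and the share of that RNA carrying the mark, while the Sup signal follows the RNA that the antibody left behind. Rnase2a, also named Ear11 in RefSeq, belongs to the eosinophil-associated ribonucleases, a family of secreted RNases named after proteins of the eosinophil granule. Members of this family are also made by macrophages in allergic lung. Ptgdr encodes a receptor for prostaglandin D2, a lipid mediator that activated mast cells release, and it signals through cyclic AMP. The defining markers of eosinophils, mast cells and macrophages, and the other genes of the eosinophil and prostaglandin pathways, were not analysed here because the files pair no other probe with these names. Whether the cells that carry either RNA became more numerous or held more of it per cell cannot be told apart in whole lung.

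Both genes lie on mouse chromosome 14. The 250 bases before their start sites are shown because both genes were chosen for a higher IP signal in asthma. Whether their RNAs vary together apart from this choice was not tested, and no shared regulation is read from the sequences. The same stretch of Rnase2b is shown because Rnase2b is a close relative of Rnase2a on the same chromosome. The sequences are from RefSeq (GRCm38.p6) and are written 5′ to 3′ on the strand of the gene. Capitals mark the letters GATA, or TATC where they lie on the other strand. GATA is the core of the sites bound by GATA factors, a protein family that includes GATA1, a regulator of eosinophil development. The windows are chr14:51256113-51256362 (minus strand) for Rnase2a, chr14:51162010-51162259 (plus strand) for Rnase2b and chr14:44859376-44859625 (minus strand) for Ptgdr.
Rnase2a: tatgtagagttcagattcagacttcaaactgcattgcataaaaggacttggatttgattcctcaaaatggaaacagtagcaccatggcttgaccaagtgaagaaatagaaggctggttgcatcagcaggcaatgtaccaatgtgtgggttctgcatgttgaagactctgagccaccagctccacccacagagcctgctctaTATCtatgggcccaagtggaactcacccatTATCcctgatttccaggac
Rnase2b: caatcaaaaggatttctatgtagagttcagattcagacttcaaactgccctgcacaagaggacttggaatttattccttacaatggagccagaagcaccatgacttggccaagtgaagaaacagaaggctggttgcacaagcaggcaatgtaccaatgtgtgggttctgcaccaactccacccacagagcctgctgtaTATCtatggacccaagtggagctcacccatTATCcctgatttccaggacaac
Ptgdr: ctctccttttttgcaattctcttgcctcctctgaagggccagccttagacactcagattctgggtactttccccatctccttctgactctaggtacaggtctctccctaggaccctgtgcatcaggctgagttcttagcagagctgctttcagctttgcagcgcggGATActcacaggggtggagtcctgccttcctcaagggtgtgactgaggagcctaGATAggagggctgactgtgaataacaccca

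Each window held the GATA core 2 times. The core occurs on either strand in 53.6% of the 32851 promoter windows of this length. The core was also searched on both strands with a base added at either end. The words used were AGATAA and, with the other last base, AGATAG. The remaining words were TGATAA and, likewise, TGATAG. Of the 3 windows, only that of Ptgdr held such a word, an AGATAG that begins 31 bases before the start site. These words overlap the core by construction and at least 1 of them occurs in 26.5% of all windows. Aligned end to end, the windows of Rnase2a and Rnase2b were identical in 211 of 269 aligned columns (78.4%), against 43.0% for Rnase2a and Ptgdr. Probe sequences were not used here, so whether the Rnase2a probe also reports Rnase2b or other relatives was not tested. These matches describe the letters of the windows and say nothing of binding.

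In the scanner's own units, the Rnase2a spot went from between 2.30 and 3.33 times the local background in IP in the control mice to between 314 and 346 times in the asthma mice. The median IP signal of the spot was 50.5, 60 and 48 in control mice 1, 2 and 3, where the local background was 22, 18 and 20. In asthma mice 1, 2 and 3 it was 6270.5, 7275 and 6993 over a background of 20, 21 and 21. The lowest asthma signal was thus far above the highest control signal, although the background hardly differed between the groups.

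The unbound RNA showed the same order. The median Sup signal of Rnase2a was 29, 53 and 34 in control mice 1, 2 and 3, over a background between 12 and 13. It was 3035.5, 3078 and 3481 in asthma mice 1, 2 and 3, over a background of the same size. The spot was well above background by the scanner's flag in both channels of all 6 arrays, and no spot of a transcript probe was saturated. The Rnase2a probe therefore had a measured signal in control lung. Its fold change does not rest on spots at background, although its size depends on how the background is handled.

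The Ptgdr spot behaved otherwise. Its median IP signal in control mice 1, 2 and 3 was 19.5, 19 and 19.5 over a background of 21, 20 and 18, and its Sup signal was 12, 15 and 11 over a background of 12. None of these 6 control readings was well above background. In asthma mice 1, 2 and 3 the IP signal was 130, 151 and 144 over a background of 21, 20 and 20. The Sup signal in these mice was 43, 47 and 56 over a background between 12 and 13. All 6 asthma readings were well above background, and the groups did not overlap in either channel.

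**Figure D1:**
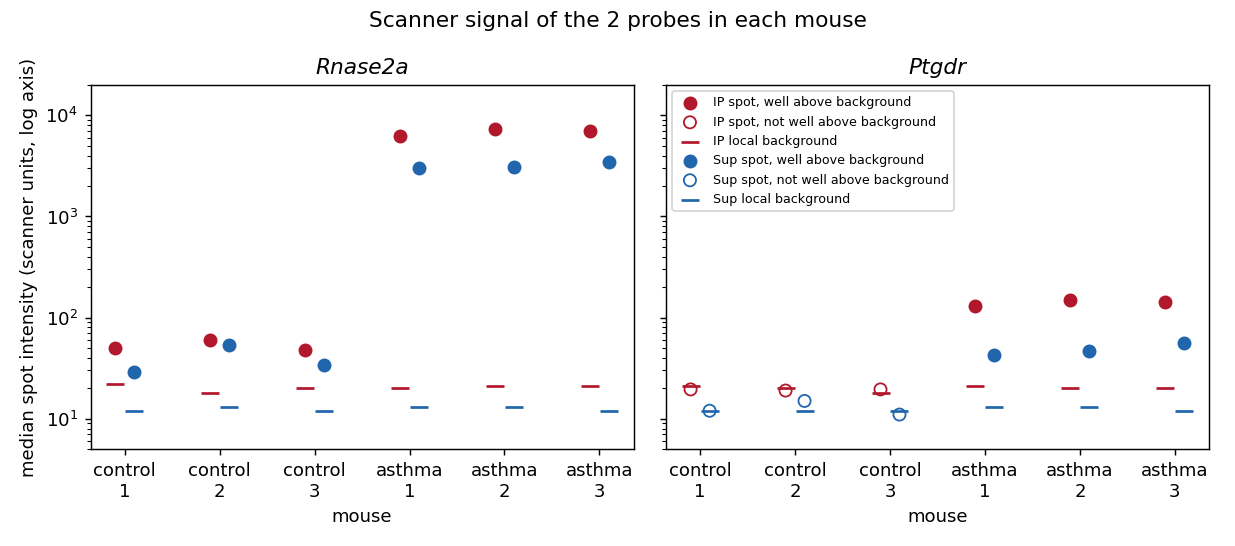
Median spot intensity (scanner units, log axis) of the Rnase2a probe (left) and the Ptgdr probe (right) in each of the 6 mice, for IP (red) and Sup (blue). Filled circles are spots well above background, open circles are spots that are not, and dashes give the local background. Rnase2a is above background in all 6 mice and Ptgdr only in the 3 asthma mice.

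A probe that is off in both channels of all 3 control mice and on in both channels of all 3 asthma mice, as Ptgdr is, was rare. This held for 16 of the 56554 transcript probes, and the reverse held for 2. Gcnt3, another mRNA that the study lists as up, was also among the 16. In the IP channel alone, 525 probes were off in the 3 control mice and on in the 3 asthma mice. The reverse held for 4 in this channel. In the Sup channel alone, 89 probes were off in the control mice and on in the asthma mice, and 65 showed the reverse. Among the 16 probes, Ptgdr had the highest IP difference between asthma and control and the second highest Sup difference, on the spike-in scale that follows. Ptgdr and Gcnt3 were both listed for their IP rise, so the place of Ptgdr among these probes is a description only.

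For comparison across arrays, the median signals were background-corrected, put on the log2 scale and set relative to the mean of 114 spike-in probes in each channel of each array. A log2 value of 0 is thus the mean of the spike-in probes, and a difference of 1 is a change of 2-fold. On this scale Rnase2a had IP values of 0.11, 0.21 and 0.21 in control mice 1, 2 and 3. The values of asthma mice 1, 2 and 3 were 6.10, 6.29 and 6.43. The asthma mean of 6.27 ± 0.16 (SD, n = 3) exceeded the control mean of 0.18 ± 0.06 (SD, n = 3) by 6.10 (standard error 0.12), a 68.5-fold difference. The lowest asthma value lay 5.89 above the highest control value, so the difference was much larger than the spread between mice of either group. The background-subtracted control signals were between 28.8 and 37.6, below the offset of 50 that the correction adds to every signal, which shrinks the fold. Over the other settings run, the IP fold lay between 51.7 and 155, with 126 from the deposited log2 values.

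In the unbound fraction the log2 values of Rnase2a were -0.26, -0.02 and -0.13 in control mice 1, 2 and 3. They were 4.997, 5.04 and 5.40 in asthma mice 1, 2 and 3. The means were -0.14 ± 0.12 (SD, n = 3) and 5.14 ± 0.22 (SD, n = 3), a difference of 5.28 (standard error 0.13) or 38.9-fold, and the groups were 5.02 apart at their nearest values. The background-subtracted control signals in Sup were between 16.0 and 38.5, again below the offset, which shrinks this fold too. Over the other settings the Sup fold lay between 34.8 and 145, the highest from the deposited log2 values. The RNA that the antibody did not bind was thus higher in asthma too, as was the RNA that it bound.

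Rnase2a had the highest difference of all probes in both fractions. It ranked 1 of 37359 probes tested in IP and 1 of 45243 tested in Sup. The next in both rankings was Clca1, which marks mucous airway cells, with differences of 5.10 in IP and 4.18 in Sup. Only 1 probe lay above 6 in IP, which was Rnase2a itself, and 16 lay above 4. In Sup 2 probes lay above 4. Over all tested probes the median difference was 0.15 in IP and -0.07 in Sup, so that Rnase2a stood 5.95 and 5.35 above the bulk of the array. Its rank of 1 held in both fractions under each of the 18 other settings run, which include other background corrections, other scalings and each mouse left out. The study lists Rnase2a with the largest rise in IP, so its IP rank was known from the choice. All settings draw on the same arrays.

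For Ptgdr the spike-in scale gave smaller differences. Its log2 IP values were -0.53, -0.61 and -0.34 in control mice 1, 2 and 3. Those of asthma mice 1, 2 and 3 were 0.84, 1.01 and 1.14. The asthma mean was 0.995 ± 0.15 (SD, n = 3), 1.49 (standard error 0.13) above that of the control mice at -0.50 ± 0.14 (SD, n = 3). The control values are those of spots at background and carry no level of Ptgdr.

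Its Sup values were -0.66, -0.75 and -0.65 in control mice 1, 2 and 3, against -0.21, -0.13 and 0.22 in the asthma mice in the same order. The means were -0.69 ± 0.05 (SD, n = 3) and -0.04 ± 0.23 (SD, n = 3), a difference of 0.65 (standard error 0.13). The groups lay 1.19 apart in IP and 0.44 apart in Sup at their nearest values. Because no control spot of Ptgdr was well above background, its asthma signal was also set against a floor. The floor on each control array was the dimmest probe still well above background, or the Ptgdr spot itself where that was higher, after loess and Aquantile normalization of the channels. Against this floor, Ptgdr was 2.63-fold higher in IP and 1.61-fold higher in Sup. These are not strict lower bounds, because a spot that is not well above background can lie above the dimmest flagged probe. The IP spots of Arg1, another mRNA listed as up, did so in the control mice. Both values apply to this normalization alone, and dye bias can enter them, since the dyes were not swapped. The Sup value is above the 1.57-fold of the group means on the spike-in scale.

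Both probes were called higher in IP by the thresholds of the study (more than 1.5-fold, with P under 0.05 before any adjustment), which their choice made certain. Of all tested probes 6.86% were called higher in IP and 0.0562% lower. Both were also called higher in Sup, where the shares were 0.584% higher and 1.32% lower. Ptgdr was among the tested probes only through its asthma spots, a filter that favours a higher call in both fractions. For Ptgdr the Sup call was narrow, since its fold of 1.57 became 1.49 with no background correction, 1.48 with the bright spike-in probes only and 1.43 without asthma mouse 3, each too small for the call. In IP all 3 asthma values lay above all 3 control values in 20.3% of tested probes and below them in 1.31%, and in Sup in 2.83% and 15.4%. The Sup signal comes from the same mice and the same comparison that chose the probes, so nothing further is read from these shares.

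**Figure D2:**
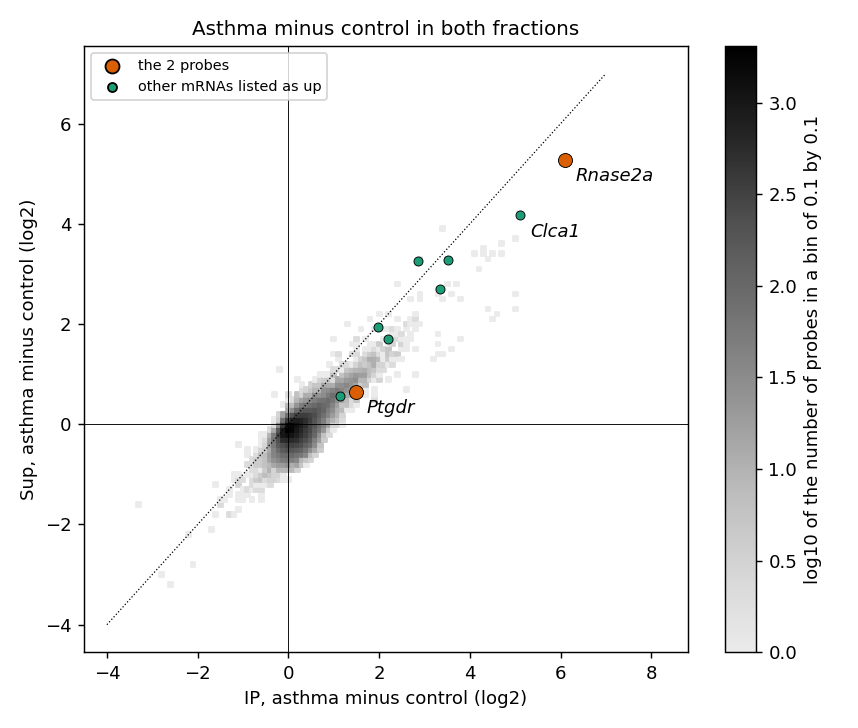
Difference between asthma and control (log2, spike-in scale) in IP (horizontal) against Sup (vertical) for the probes tested in both, with the number of probes per bin in grey (log10). Orange points are Rnase2a (6.10 and 5.28) and Ptgdr (1.49 and 0.65), green points are 7 of the other mRNAs listed as up in the study, and the dotted line marks equal change.

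The rank of Ptgdr depended on how the background was handled. It ranked 415 of 37359 in IP and 1053 of 45243 in Sup on the spike-in scale with an offset of 50, which shrinks differences of dim spots most. With an offset of 10 it ranked 50 in IP and 85 in Sup. In the log2 table that the authors deposited, it ranked 3 in both fractions, with an IP difference of 5.30 and a Sup difference of 4.83. The deposited log2 IP values of Ptgdr were -4.78, -4.79 and -4.33 in control mice 1, 2 and 3, against 0.47, 0.67 and 0.85 in the asthma mice in the same order.

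These deposited control values rest on signals no larger than their error. They are the scanner's processed signals on the log2 scale, less a constant for each array and channel. For Ptgdr the processed IP signal was 13.3, 10.1 and 14.1 in control mice 1, 2 and 3, and the scanner's own error of it was 13.4, 10.1 and 14.2, so the error was 100.3% of the signal in each. In Sup the error was between 100.3% and 100.6% of the signal in these mice. In the asthma mice it was between 10.2% and 10.3% of the signal in IP and between 10.3% and 10.7% in Sup. For Rnase2a the error stayed between 10.0% and 12.6% in all 12 readings. The direction of the Ptgdr difference was the same under every setting run. This was near certain beforehand, since its control spots were at background and its asthma spots well above it. The size of the Ptgdr difference moved from 1.08 to 6.39 in IP and from 0.52 to 4.92 in Sup.

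**Figure D3:**
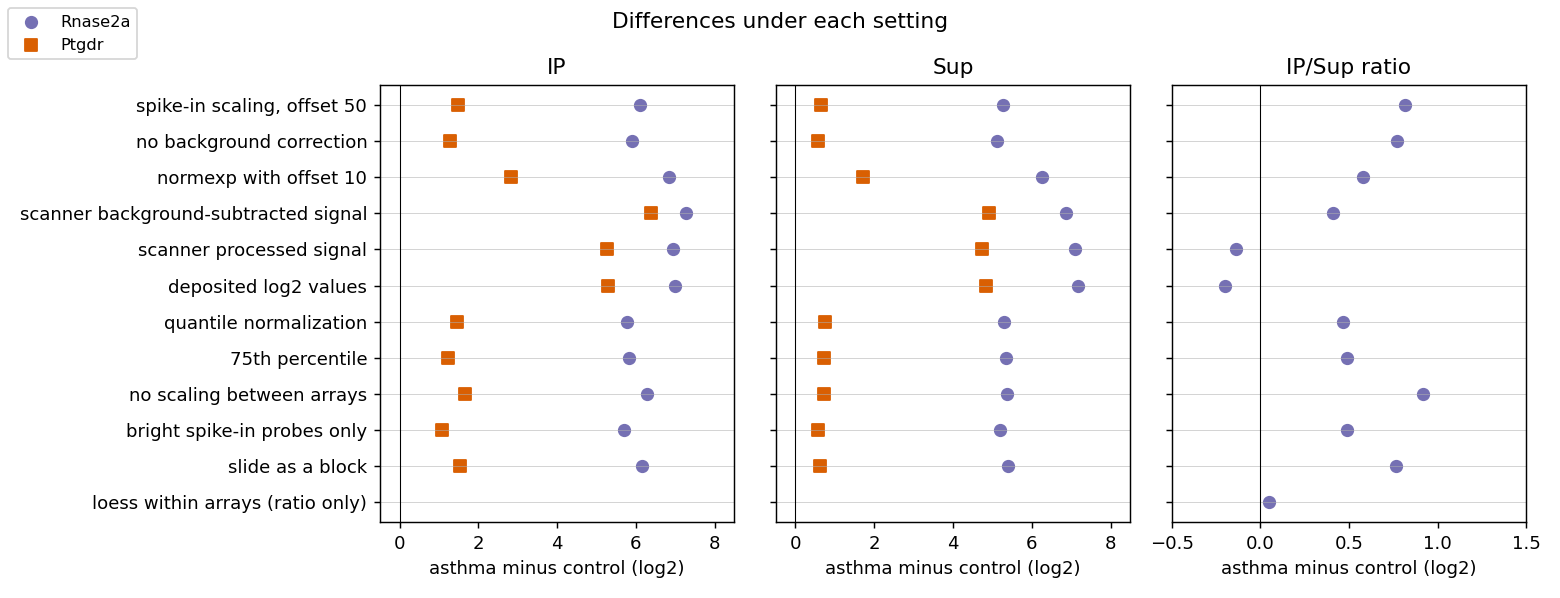
Difference between asthma and control (log2) for Rnase2a (circles) and Ptgdr (squares) in IP, Sup and the ratio of IP to Sup, with 1 row for each way of background correction and scaling. Rnase2a lies between 5.69 and 7.27 in IP, Ptgdr between 1.08 and 6.39, and the ratio of Rnase2a crosses 0. No ratio is drawn for Ptgdr, which was not above background in control mice.

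The ratio of bound to unbound signal asks whether the bound part of a gene's RNA changed by more than the unbound part. From the scanner's background-subtracted signals, with no scaling, Rnase2a had an IP to Sup ratio of 1.80, 0.977 and 1.36 in control mice 1, 2 and 3. It was 2.14, 2.48 and 2.12 in asthma mice 1, 2 and 3. The asthma mean of 2.25 ± 0.21 (SD, n = 3) was above the control mean of 1.38 ± 0.41 (SD, n = 3), and the values did not overlap. The control ratios come from dim spots and spread more widely.

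On the spike-in scale the log2 ratio of Rnase2a was 0.36, 0.24 and 0.34 in control mice 1, 2 and 3. In asthma mice 1, 2 and 3 it was 1.105, 1.25 and 1.03. The difference was 0.82 (standard error 0.11), a 1.76-fold higher ratio in asthma. The median of all 37077 tested probes was also higher in asthma, by 0.25, and 12.1% of them were called higher, as Rnase2a was, and 0.00809% lower. In 41.8% all 3 asthma ratios lay above all 3 control ratios, and in 0.364% below them. Rnase2a ranked 959 among them and stood 0.57 above their median. Its rank lay between 217 and 35656 over the other settings, and in 8 of these its ratio changed too little for the call. The sign was not stable, since the ratio fell by 0.20 with the deposited log2 values and by 0.14 with the scanner's processed signal. The deposited values are that processed signal less a constant per array and channel, so both falls rest on the same signal. The difference was 0.05 with loess within arrays. A shift in the IP to Sup ratio of Rnase2a apart from that of the other probes therefore did not hold under all settings.

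For Ptgdr a ratio exists in the asthma mice only. The background-subtracted IP signal was 3.83, 3.82 and 2.91 times the Sup signal in asthma mice 1, 2 and 3, a mean of 3.52 ± 0.53 (SD, n = 3). In the control mice the background-subtracted IP signals of Ptgdr were below 0, at -0.93, -1.52 and -0.85, so no ratio and no change of the ratio can be given.

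**Figure D4:**
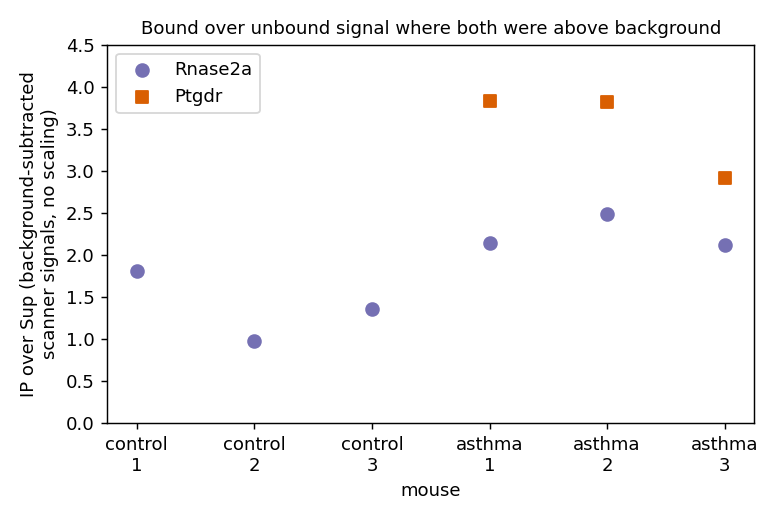
Background-subtracted IP signal over background-subtracted Sup signal (no scaling) for Rnase2a (circles) and Ptgdr (squares) in each mouse. Points are shown where both channels were well above background, which leaves 6 mice for Rnase2a (control 0.977 to 1.80, asthma 2.12 to 2.48) and 3 asthma mice for Ptgdr (2.91 to 3.83).

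Slide and group overlapped in part. By the file headers, control mice 2 and 3 were on slide 2 and the remaining 4 mice on slide 1. Within slide 1, Rnase2a in the asthma mice exceeded control mouse 1 by 6.17 in IP and by 5.40 in Sup. For Ptgdr these differences were 1.52 and 0.62. They differed from those over all 6 mice by less than the larger of the group SDs, although for Rnase2a by more than the SD of the control mice. With slide as a block, the rank of Ptgdr went from 415 to 713 in IP and from 1053 to 2001 in Sup. All 6 arrays carried the same scan time. The share of transcript probes well above background was between 60.1% and 66.7% in IP in control mice and between 69.5% and 70.0% in asthma mice, and between 80.4% and 84.4% in Sup in all mice. Its part in the differences was not tested.

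By the root mean square distance over 12 values (IP and Sup in 6 mice, each less the control mean of the channel), the probe most like Rnase2a was that of Clca1, at a distance of 0.99 on the log2 scale among 36895 other probes. This distance depends strongly on the size of the rise. Rnase2a and Clca1 ranked 1 and 2 by that size in both fractions, so their nearness follows largely from the ranking. The Clca1 probe was well above background in only 2 of the 3 control mice in each channel. Its IP values in control mice were less even than those of Rnase2a, at -0.33, 0.10 and 1.98 in mice 1, 2 and 3. The probe most like Ptgdr was ASMM10EP3A115722856, which the files do not pair with a gene. Its distance was 0.17, and its differences were 1.54 in IP and 0.55 in Sup. Unlike Ptgdr, it was well above background in all 3 control mice in both channels.

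Beside the other 8 mRNAs that the study lists as up, Rnase2a had a higher IP difference than any, and those of the 8 lay between 1.14 and 5.10. On this scale Ptgdr was below 7 of them and above Gcnt3, a mucin glycosyltransferase. In Sup, 7 of the 8 were tested, with differences between 0.57 and 4.18, and Ptgdr again stood above Gcnt3 alone. The place of Ptgdr turned with the background handling, since it ranked 3 of all tested probes in both fractions with the deposited, the processed and the background-subtracted values, which leaves at most 1 of the 8 above it. These 8 were chosen in the same way as Rnase2a and Ptgdr, so the order is a description of listed genes only.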

How the data were processed

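The authors scanned 6 arrays, 1 per mouse, with Agilent Feature Extraction version 11.0.1.1 and deposited spot intensity values for both channels. The IP and Sup files of a mouse were identical and were read as 1 array. They also deposited log2 values for 41337 probes, described as normalized to spike-in RNA. These values equal the log2 of the processed signal less a constant per array and channel. Scanner flags (other values, 0 or 1) were used as deposited.

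The median spot signal was background-corrected by normexp (offset 50, limma) and log2-transformed, and the mean of 114 probes (those named ERCC or spike-in) was subtracted. Of these probes 24 in IP and 52 in Sup were well above background in all 6 mice. Non-uniform spots were left out. A probe was tested where all 3 mice of either group were well above background (for the ratio, in IP and Sup alike). Tested probes were fitted in limma 3.58.1 (R 4.3.3), which was tested on simulated data. The standard errors come from these fits.

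Rnase2a and Ptgdr, the lists and the settings were chosen with earlier results of these data known. The rule for named genes was these 2 genes, the nearest probe to each by the 12 values, and the other mRNAs listed as up in the study. Eosinophil, prostaglandin and marker gene lists were planned but not analysed, for lack of probe names. A planned percentile of each level among probes was not computed, since levels of different probes are not comparable. Whether mice of a group were housed or treated in separate batches is not given in the sources used here. With 3 arrays per group, the precision of the values is limited by the number of mice. Alternatives covered background correction, scaling, the filter on dim probes, the values as deposited, slide or replicate number as a block, leaving out each mouse, and, for the ratio, loess within arrays.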

Additional observations from a re-analysis of the deposited data

How the results depend on the processing

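The alternatives were listed in the design, except the offset of 10, which was chosen after seeing the data. The cause of a change was not tested. On the spike-in scale the differences between asthma and control were 6.10 in IP, 5.28 in Sup and 0.82 in the ratio for Rnase2a, and 1.49 in IP and 0.65 in Sup for Ptgdr. In the same order, the scanner's background-subtracted signal gave 7.27, 6.86, 0.41, 6.39 and 4.92, and the scanner's processed signal 6.95, 7.09, -0.14, 5.26 and 4.73. The deposited log2 values gave 6.98, 7.18, -0.20, 5.30 and 4.83, and the offset of 10 gave 6.84, 6.26, 0.58, 2.84 and 1.72. With no background correction the IP differences of Rnase2a and Ptgdr were 5.89 and 1.29. For these IP differences and the ratio of Rnase2a, the 75th percentile gave 5.84, 1.23 and 0.49, and the bright spike-in probes only 5.69, 1.08 and 0.49. With no scaling the IP differences were 6.28 and 1.67. Quantile normalization gave 5.77 for Rnase2a in IP and 0.47 for its ratio, and loess within arrays gave 0.0501 for the ratio. Other values for these differences moved by less than the larger of the group SDs, although some by more than the smaller.

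Without 1 mouse at a time, Rnase2a lay between 6.02 and 6.18 in IP, 5.15 and 5.35 in Sup and 0.75 and 0.87 in the ratio, and Ptgdr between 1.42 and 1.57 in IP and 0.52 and 0.73 in Sup. The IP rank of Ptgdr of 415 became 930 without control mouse 2, 224 without control mouse 3, and 161, 216 and 1079 without asthma mice 1, 2 and 3. Its Sup rank of 1053 became 1925 without control mouse 2 and 312, 632 and 2714 without asthma mice 1, 2 and 3. The ratio rank of Rnase2a of 959 became 1506 and 1587 without control mice 1 and 2, 35656 with the deposited values, 35653 with the processed signal, 13771 with loess, 13355 with the background-subtracted signal, 5599 with the offset of 10 and 217 with quantile normalization.

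Replicate numbers were not taken to pair the mice. The correlations of same-numbered mice in IP were -0.37, 0.39 and 0.25, which alone do not settle whether the numbers pair them. With the replicate block the differences stayed at 6.10, 5.28, 0.82, 1.49 and 0.65. With this block 503 probes were called higher in Sup against 264, and 3440 in IP against 2564. Over the alternatives, IP calls lay between 602 and 5764 higher (2564 reported) and 8 and 1257 lower (21), Sup calls between 159 and 1922 higher and 96 and 5609 lower (596), and ratio calls between 55 and 7408 higher (4494) and 0 and 82 lower (3). The IP split of 2564 higher and 21 lower became 602 and 328 with quantile normalization, 1034 and 205 with the 75th percentile and 1263 and 1257 with the bright spike-in probes. No control spot of Ptgdr was well above background, so the size of its fold change was not fixed.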
